A study of Arabidopsis thaliana with 42 samples.

Results

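The cytosolic small heat shock proteins of Arabidopsis thaliana are described here through 10 genes, taken by locus from the 27655 genes of the deposited expression table. They comprise 6 class I genes (HSP17.4, AT1G59860, AT2G29500, AT1G53540, AT1G07400 and HSP18.2), 2 class II genes (HSP17.6II and HSP17.6A), 1 class III gene (AT1G54050) and HSP15.4 (AT4G21870). Small heat shock proteins are chaperones that bind unfolding proteins without using ATP, assemble into large oligomers and keep their clients in a state from which HSP70 and the disaggregase HSP101 can refold them. In plants they are nearly absent from vegetative tissue at normal temperature, are made in large amounts under heat through heat shock factors, and are also made in maturing seeds. Class I and class II proteins act in the cytosol, and the class III protein is found in the nucleus and the cytosol.

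Poly(A) RNA of whole seedlings, 10 days old and of the Columbia-0 background, was sequenced as stranded libraries. Their daily cycle had a light phase (16 h, 23 °C) and a dark phase (8 h, 18 °C). In every group the seedlings are listed as moved 3 h into the light phase. Wild-type seedlings and seedlings of a mutant that carries both upf3-1 and upf1-5, called upf here and impaired in nonsense-mediated decay, which degrades mRNAs whose stop codon comes too early, were sampled before heat (0 min) and after 15, 30, 45 and 90 min at 44 °C in the light. A further set of wild-type seedlings went through the same 4 heat times with cycloheximide (CHX), which blocks translation, in the medium, given in the labels as 10 µg/L. That dose is low for this inhibitor, its unit may be a misprint, and how far translation was blocked was not measured in these libraries. These 14 groups held 3 libraries each, 42 in all, every library from a pool of several plants. No group received CHX without heat, and no unheated seedlings were taken after 0 min, so heat cannot be told apart from time in the medium and CHX is seen only in heated seedlings. The upf mutant is a single combination of both alleles, and in such whole-seedling RNA fewer cells of a type and less RNA per cell cannot be told apart.

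Values are the authors' normalized counts, and rose or fell is written of genes that limma, fitted over 20747 genes, called with a Benjamini-Hochberg adjusted p below 0.05 and a change of 2-fold or more. All 10 genes were among the 20747. UPF1 was at 1298 to 2616 normalized counts in the 27 wild-type libraries and at 424.5 to 806.5 in the 15 upf libraries, and UPF3 at 460.5 to 1039 and 104 to 198. Read numbers estimated from the spacing of the values ran from 20.4 to 76.4 M per library. Summed normalized counts were 15.8 to 16.6 M in unheated wild type and 26.1 to 29.0 M in wild type at 90 min. The highest total was 30.96 M, in replicate 3 of wild type at 45 min. The summed level of 4 root markers, nearly all of it PYK10, went from 30031 to 40525 in unheated wild type to 5679 to 6621 at 90 min. PYK10 and TIP2;3 fell (by 2.53 and 1.36 on the log2 scale), WOX5 rose (2.95) and PRX44 was not called (0.62). That of 4 shoot markers went from 511464 to 587186 to 664586 to 931004. Of 8 seed markers all were detected in unheated seedlings, with a summed level of 7526 to 11428 in upf and 409.5 to 8467 in wild type. The part of these differences in the results was not tested.

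A few libraries stood apart for these genes before any comparison is made. In wild type at 45 min HSP17.4 was at 112122.5, 47736 and 207738 normalized counts in replicates 1, 2 and 3, so that replicate 3 was the highest and replicate 2 the lowest. AT1G53540 and AT1G07400 showed the same order, replicate 3 being 0.82 and 0.75 above the group mean on the log2 scale. Replicate 3 of upf at 30 min and replicate 3 of CHX plus heat at 45 and 90 min were likewise the highest of their groups for each class I and class II gene. In these 4 libraries the summed shoot markers were also the highest of the group (1022822, 979080, 737326 and 751364 normalized counts), as was the library total. So was the estimated read number (54.1, 76.4, 75.9 and 60.2 M). AT1G54050 and HSP15.4 were instead the lowest of the group in the first 2 of them (-0.167 and -0.435, then -0.41 and -0.413 from the group mean). Replicate 3 of wild type at 90 min was the highest for the same measures and the 8 class I and II genes, by 0.067 to 0.251. Replicate 2 of upf at 15 min was the lowest of its group for those 8 genes, for the shoot markers (417644 against 647764 and 648132.5) and for the estimated read number (35.8 M). The part of shoot material, of read depth or of scaling in these deviations was not tested. Over the 36 heated libraries the within-group SD on the log2 scale was 0.45 for HSP17.4, 0.40 for AT1G53540 and 0.38 for AT1G07400, and 0.24 for both AT2G29500 and AT1G54050.

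The genes differ in structure as well as in sequence. In the TAIR10.1 annotation the 8 genes of classes I and II have no intron and encode proteins of 153 to 161 residues. HSP17.4 lies on chromosome 3 (16984118 to 16984841, minus strand), AT2G29500 on chromosome 2 (12633065 to 12634120, minus) and HSP18.2 on chromosome 5 (24062323 to 24063300, plus). The other class I genes are on chromosome 1, at 2274926 to 2275783 (AT1G07400, plus), 19980299 to 19981199 (AT1G53540, plus) and 22031343 to 22032250 (AT1G59860, plus). The class II genes are neighbours on the minus strand of chromosome 5, HSP17.6II at 3882231 to 3883111 and HSP17.6A at 3883957 to 3884838. AT1G54050 (chromosome 1, 20179357 to 20180566, minus) has 2 introns and 2 listed transcripts, and HSP15.4 (chromosome 4, 11603481 to 11604637, minus) has 1 intron of 125 bases within its coding sequence and encodes 134 residues. Coding sequences were 66.27 to 88.05% identical within class I, 85.7% between the class II genes, and 42.8 to 47.7% between HSP15.4 and the other genes. Despite this, at most 4.32% of a gene's 31-base words occurred in a transcript of another gene (HSP17.4, shared with its neighbour AT3G46220), 2.96% for AT1G59860 and 3.14% for AT1G07400, and none for HSP18.2, AT1G54050 and HSP15.4. Reads from those stretches could have been assigned to either gene.

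Heat shock factors bind heat shock elements, alternating copies of GAA and TTC. The best match before each start codon is shown because these are the sequences through which heat induction of such genes is known to run. Capitals mark the element, read 5′ to 3′ on the gene's strand from the TAIR10.1 genome:
HSP17.4: aaacctGAAATTTCAAGAAacttgc
AT1G53540: acaccaGAAACTTCTTGAAagcacc
HSP18.2: acaaacGAAACTTCCTGAAatgcca
AT1G59860: cctcatTTCTAGAAgctctg
AT1G07400: cgtaaaTTCTAGAAgctctg
AT2G29500: gctcgaGAAATTTCggttag
HSP17.6II: agacgtTTCTCGAAcaatac
HSP17.6A: agacgtTTCTCGAAcgttag
AT1G54050: tctctgGAACTTTCtagctc
HSP15.4: ttctttTTCGAGAAtacaaa

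The motifs searched were GAANNTTC and TTCNNGAA (2 units) and GAANNTTCNNGAA and TTCNNGAANNTTC (3 units), on both strands. Each 3-unit match also contains 2-unit matches. Within 500 bases before the start codon all 10 genes held a 2-unit match, against 33.9% of 27444 genes, and 3 genes (HSP17.4, AT1G53540 and HSP18.2) held a 3-unit match, against 1.2%. In the 250 bases before the annotated transcript start the counts were 3 of 10 (16.2% of all genes) and 2 of 10 (0.39%), since 7 of the 10 genes have all their matches inside the annotated 5′ end of the transcript. HSP15.4 and AT1G59860, the genes with the smallest and the largest heat response described in the next paragraphs, each held 1 match, and so did AT1G07400 and both class II genes. HSP17.4, AT1G53540 and HSP18.2 held 4 matches each and AT2G29500 and AT1G54050 2 each. The matches shown carry the same element in the class II neighbours, and another shared element in AT1G59860 and AT1G07400.

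Heat raised 9 of the 10 genes in wild type from 25 to 350 normalized counts per unheated library to 68116.5 or more per library after 90 min. HSP17.4 was at 82.5, 117 and 156 normalized counts in the 3 unheated libraries, at 9012, 7980.5 and 8465 after 15 min, and at 127394.5, 144059 and 175934.5 after 90 min. AT1G59860 was at 25, 37 and 44.5 before heat, at 11687, 11229.5 and 11986 after 15 min and at 111921.5, 124702 and 137340 after 90 min. No heated library came near an unheated one for either gene. The log2 change of AT1G59860 at 15 min, 8.35 (SE 0.35, adjusted p = 3.3e-20), was the highest of the family, and that of HSP18.2, 5.30 (SE 0.28, adjusted p = 1.8e-17), the lowest of the 9. After 90 min the 9 changes lay between 9.37 (AT1G54050) and 11.77 (AT1G59860). In the count of calls, 9 genes had risen at 15 min (8.92% of all genes tested rose), 10 at 30 min (11.5%), 10 at 45 min (12.7%) and 9 at 90 min (12.2%), HSP15.4 being the exception. The median log2 change of the 10 was 6.15, 9.12, 9.75 and 10.06 at the 4 times, beside -0.06, -0.12, -0.12 and -0.14 over all genes. Leaving out any 1 library, replicates 2 and 3 at 45 min included, left 9 or 10 genes called at each time.

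3 other class I genes rose as well. AT1G07400 was at 162, 350 and 223.5 normalized counts before heat, at 16926.5, 15228.5 and 15775 after 15 min and at 219258.5, 243299 and 286182 after 90 min. AT1G53540 was at 45, 62 and 105 before heat, at 8214, 6897 and 7221.5 after 15 min and at 170219, 181103.5 and 223166.5 after 90 min. AT2G29500 was at 135.5, 201 and 157, then at 11097, 9235 and 10552.5 and finally at 121213, 128630.5 and 133913.5. For these genes the 3 libraries of 15 min lay above those of 0 min and below those of 30 min and 90 min. The log2 changes at 90 min were 10.05 (SE 0.33), 11.46 (SE 0.39) and 9.61 (SE 0.24).

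The class II neighbours moved alike at different heights. HSP17.6A was at 52, 161.5 and 133.5 normalized counts before heat, at 9538.5, 7994.5 and 8717 after 15 min and at 103324.5, 110895.5 and 127834 after 90 min. HSP17.6II was at 64.5, 124 and 72.5, at 6689.5, 5253 and 5667.5 and at 68116.5, 73257.5 and 87128 at those times. Every library of HSP17.6A after 15 or 90 min was above every library of HSP17.6II, and the transcripts have nearly the same length (882 and 881 bases). Their log2 changes at 90 min were 10.08 (SE 0.33) and 9.81 (SE 0.26). AT1G54050, of class III, was at 110, 136 and 107 before heat, at 12270.5, 10175.5 and 12583 after 15 min and at 56820.5, 58893.5 and 72157 after 30 min.

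**Figure D1:**
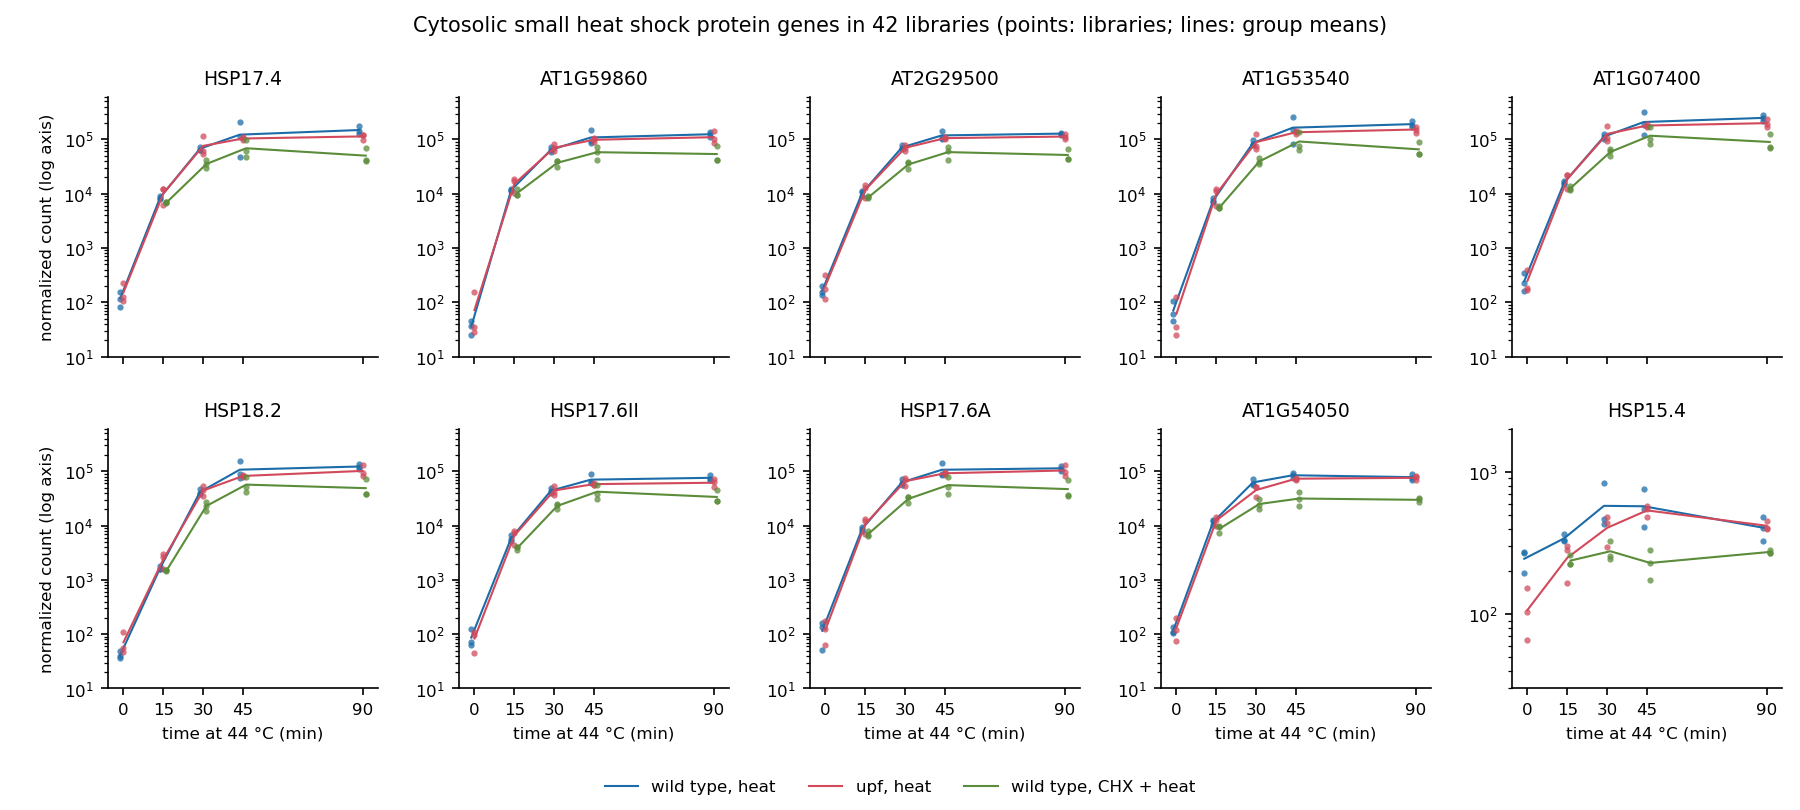
Normalized counts (log axis) of the 10 genes against time at 44 °C in min, with 1 point per library and lines through the means of 3 libraries, for heated wild type, heated upf and wild type heated with CHX. The panels of 9 genes climb steeply within 30 min and the CHX line ends lowest, while HSP15.4, on its own axis, stays below 1000.

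Together the 10 genes took 0.00767 ± 0.00179% of all normalized counts in unheated wild type (mean ± SD, n = 3), 0.455 ± 0.0331% after 15 min, 2.62 ± 0.277% after 30 min, 3.94 ± 0.979% after 45 min and 4.45 ± 0.262% after 90 min. The largest contributor per kilobase of transcript was AT1G07400, with 19.1 to 20.8% of the family's summed level in each wild-type group. On that scale, normalized counts per kilobase, it averaged 290886 ± 39512 at 90 min (SD, n = 3). AT1G53540 and HSP17.4 followed at 212538 ± 31034 and 205980 ± 34066, which differ by less than their SDs. The next 4 were AT1G59860 at 137285 ± 13997, HSP17.6A at 129272 ± 14229, HSP18.2 at 125865 ± 13434 and AT2G29500 at 121135 ± 6042, and no neighbours among them differ beyond their spread. HSP17.6II and AT1G54050 came next at 86456 ± 11162 and 85468 ± 11958, again within their SDs, and HSP15.4 last at 392.6 ± 76.3.

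The make-up of the family shifted with time. AT1G59860 supplied 2.91% of the summed level per kilobase before heat, 14.04% after 15 min and 9.84% after 90 min. HSP18.2 moved the other way, from 3.28% before heat to 1.85% after 15 min and then to 6.17, 8.91 and 9.02% at the later times. AT1G54050 gave 12.8% after 15 min and 6.23% after 90 min. HSP15.4 made up 17.9% of this sum in unheated wild type and 0.03% after 90 min, while the other 9 genes rose.

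**Figure D2:**
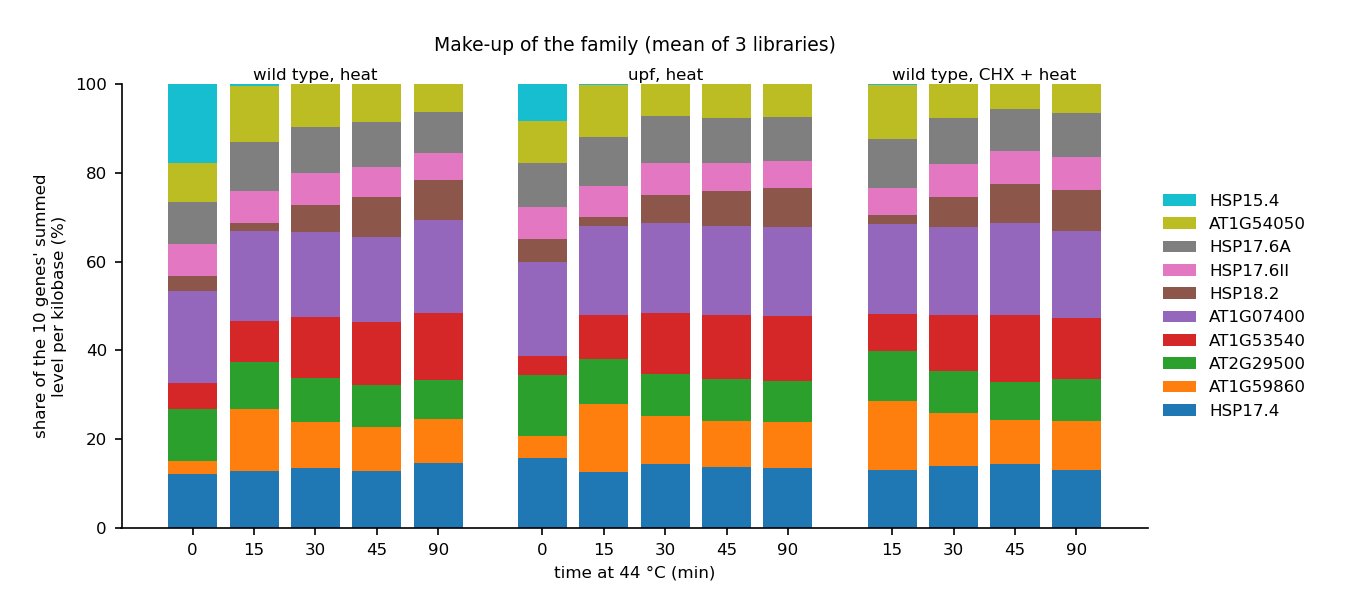
Share of each gene (%) in the 10 genes' summed level per kilobase of transcript, by time at 44 °C in min, as the mean of 3 libraries in each of the 14 groups. AT1G59860 is widest at 15 min (14.04% in wild type), the HSP18.2 band widens from 1.85% to 9.02%, and HSP15.4 is visible mainly at 0 min.

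The pace of the rise differed between genes. At 15 min AT1G54050 had reached 14.9% of its own mean at 90 min and AT1G59860 9.33%, whereas HSP18.2 had reached 1.34% and AT1G53540 3.89%. HSP18.2 was at 39, 36.5 and 48.5 normalized counts before heat, at 1788.5, 1565 and 1612.5 after 15 min, at 38374.5, 39606.5 and 46821 after 30 min and at 112296.5, 119269.5 and 137723 after 90 min. Its libraries thus separated at each of these times. Between 15 and 30 min 9 genes rose (4.64% of all genes rose), by 4.65 (SE 0.28) for HSP18.2, 3.52 (SE 0.39) for AT1G53540 and 2.42 to 2.99 for the other 7. HSP15.4 differed by 0.69 and was not called. From 30 to 45 min HSP18.2 alone was called, with a log2 change of 1.31 (SE 0.28, adjusted p = 0.00572; 0.636% of all genes rose). That call was lost without replicate 3 of the 45 min group (1.00, adjusted p = 0.0603) and in a fit on the compared groups only, and HSP17.4 was called as well without replicate 2 of that group (1.18, adjusted p = 0.0461). From 45 to 90 min limma called 0 of the 10, 0 had an unadjusted p under 0.05, and 0.0578% of all genes rose. AT1G54050 stood at 86329, 92986.5 and 75342.5 at 45 min and at 89119.5, 76081.5 and 69832 at 90 min, so the groups overlapped. The other 8 of the 9 genes had reached 82.2 to 93.97% of their 90 min mean by 45 min.

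**Figure D3:**
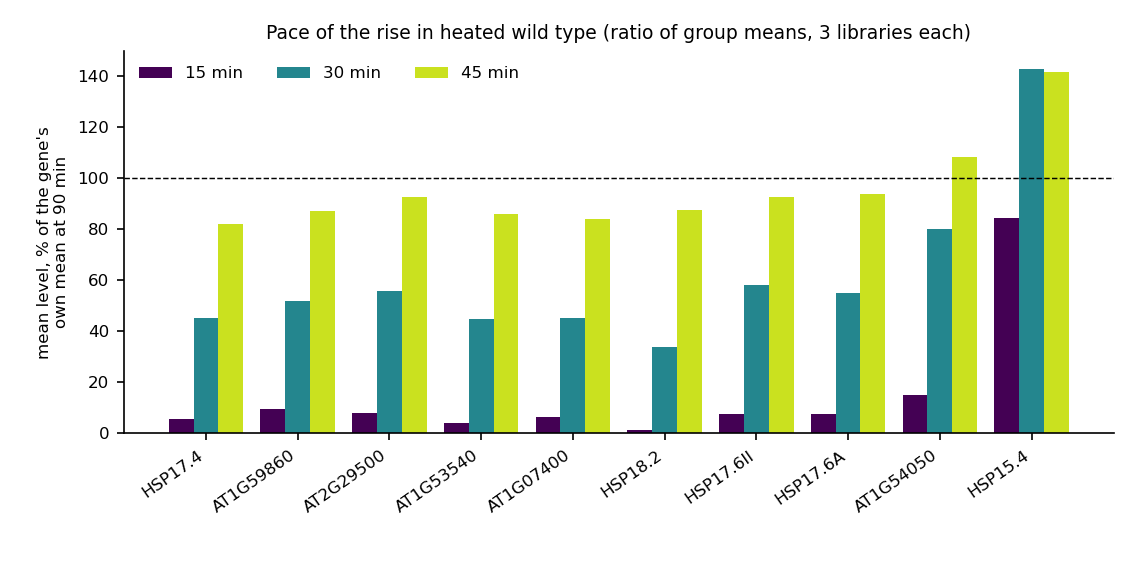
Mean level of each gene in heated wild type at 15, 30 and 45 min as a percentage of its own mean at 90 min (dashed line, 100%), as ratios of means of 3 libraries. HSP18.2 has the shortest bar at 15 min (1.34%), AT1G54050 the tallest among the 9 strongly heat-induced genes (14.9%), and HSP15.4 passes its 90 min level at 30 min.

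HSP15.4 behaved unlike the rest. It was at 193.5, 273 and 269 normalized counts in unheated wild type, the highest level per kilobase of the family after AT1G07400 there, and at 470.5, 428.5 and 834.5 after 30 min and 404, 484.5 and 327 after 90 min. On the scale of the deposited values the heated libraries lay above the unheated ones at every time, but by little. Its log2 change was 0.49 at 15 min (SE 0.26, adjusted p = 0.157), 1.19 at 30 min (adjusted p = 1.9e-04), 1.195 at 45 min (adjusted p = 1.4e-04) and 0.72 at 90 min (adjusted p = 0.014, under 2-fold). Each of the calls at 30 and 45 min rests on 1 library, replicate 3 of the first group and replicate 1 of the second (0.89 and 0.97 without them). With libraries scaled to equal totals the changes at 30 and 45 min were 0.65 and 0.45 (adjusted p = 0.0487 and 0.163), neither called, and the change at 90 min was -0.05 (adjusted p = 0.877), so its direction turned. That scaling moved the median of all genes to between -0.22 and -0.90 in wild type and left the other 9 genes called at every time.

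In upf all 10 genes rose at each heated time, beside 8.03, 10.7, 11.4 and 11% of all genes at 15, 30, 45 and 90 min. The family took 0.00828 ± 0.00415% of all counts before heat, 0.558 ± 0.126% after 15 min, 2.80 ± 0.289% after 30 min, 3.88 ± 0.206% after 45 min and 4.28 ± 0.515% after 90 min. For the 9 strongly induced genes limma called 0 differences between upf and wild type at any of the 5 times, when 5.99, 6.29, 8.18, 8.41 and 8.82% of all genes were higher and 1.48, 1.37, 1.61, 1.97 and 1.99% lower in upf. Only HSP18.2 at 0 min and AT1G54050 at 30 min had an unadjusted p under 0.05 (adjusted p = 0.0922 and 0.115). The fitted differences of these 9 genes lay between -0.49 and 0.68, and their 95% intervals reached from -1.27 to 1.34. AT1G53540 was at 172695, 151095 and 133193 normalized counts in upf at 90 min and at 170219, 181103.5 and 223166.5 in wild type, overlapping. HSP17.4 did not overlap at 90 min, with 99511 to 121393.5 in upf and 127394.5 to 175934.5 in wild type. AT1G54050 did not at 30 min, with 33468 to 51854 and 56820.5 to 72157. In all other comparisons of the genotypes the libraries of the 9 genes overlapped. The share of all genes whose libraries separate between the genotypes was not counted, so these separations have no background beside them. The summed level of the 10 genes in upf was 119.5% of that in wild type at 15 min, 103% at 30 min, 85.1% at 45 min and 83.7% at 90 min. The share of the library that the family took overlapped between the genotypes at every time. In unheated upf, replicate 3 was the highest for each of the 9 genes, with a summed level of the 10 of 1916.5 against 734 and 1101.

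HSP15.4 was the member for which limma called a difference between the genotypes. It was at 65.5, 152.5 and 103 normalized counts in unheated upf against 193.5, 273 and 269 in unheated wild type, without overlap. The log2 difference was -1.25 (95% interval -1.78 to -0.73, adjusted p = 4.6e-04), beside the 1.48% of all genes that were lower. In the authors' deposited table it was -1.195 (adjusted p = 1.0e-09). That table also gives, in unheated upf against wild type, 1.021 for AT1G59860 (adjusted p = 6.8e-04), 0.787 for HSP18.2 (adjusted p = 0.00221) and 1.705 for the transcript AT1G54050.2 (adjusted p = 2.7e-05), and adjusted p from 0.217 to 0.989 for the other transcripts of these genes. Under heat it gives 0.534 for HSP18.2 at 15 min (adjusted p = 0.0253). At 30 min it gives -0.665 for AT1G54050.2 and -0.364 for AT1G54050.1 (adjusted p = 0.00298 and 0.0394). For HSP15.4 it gives -0.454 at 15 min and -0.519 at 30 min (adjusted p = 0.0463 and 0.0141). Adjusted p ran from 0.121 to 0.974 for the other transcripts and heated times. The limma call of HSP15.4 at 0 min was lost without replicate 1 of unheated upf (-0.95, adjusted p = 0.0126). Without replicate 3 of that group AT1G53540 was called lower (-1.15, adjusted p = 0.0244), and without replicate 1 AT1G59860 was called higher (1.06, adjusted p = 0.0431). After 15 min of heat every upf library of HSP15.4 was still below every wild-type library, though limma did not call the difference. At 30 and 45 min the groups overlapped. After 90 min HSP15.4 was at 399.5, 453 and 403.5 in upf and at 404, 484.5 and 327 in wild type, overlapping. In upf it rose at each time, by 1.25, 1.96, 2.39 and 2.04 on the log2 scale, and these calls were kept with libraries scaled to equal totals (1.06, 1.42, 1.74 and 1.38). The rise at 15 min was 0.94 without replicate 1 of unheated upf.

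The heat response was also measured in the presence of CHX. There 9 genes rose over unheated wild type at every time (9.37, 12.5, 12.4 and 12.4% of all genes rose), with a median log2 change of the 10 of 5.82, 8.15, 8.96 and 8.66. HSP17.4 was at 6921.5, 6650 and 7049 normalized counts after 15 min of heat with CHX, and at 42126, 39862 and 68725.5 after 90 min. It was above every unheated library and, after 90 min, below every library heated without CHX. HSP15.4 was at 226.5, 261 and 226.5 after 15 min with CHX and at 281.5, 269 and 271 after 90 min. Its log2 changes with CHX lay between -0.11 and 0.18 and were not called at any time.

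Against heat without CHX, 0 genes were lower at 15 min, 5 at 30 min, 3 at 45 min and 9 at 90 min by limma (0.492, 2.44, 2.48 and 2.77% of all genes were lower). At 15 min 1 gene, HSP17.6II, had an unadjusted p under 0.05 (-0.58, adjusted p = 0.138). All 10 fitted differences were below 0 at each time, with a median of -0.32, -0.98, -0.90 and -1.36, beside 0.02, 0.06, 0.06 and 0.08 over all genes. At 90 min the 9 called differences ran from -1.199 (HSP17.6II, adjusted p = 3.3e-04) to -1.60 (HSP17.4, SE 0.35, adjusted p = 3.7e-04), and HSP15.4 differed by -0.55 (adjusted p = 0.0814). The CHX libraries lay below all heat libraries, without overlap, for 8 genes at 15 min, 10 at 30 min, 6 at 45 min and 10 at 90 min, as for 15.8, 21.1, 18.3 and 21.1% of all genes tested. At 45 min HSP17.4 differed by -0.66 (95% interval -1.38 to 0.06). The authors' deposited table gives, at 15 min, -0.584 for HSP17.6II (adjusted p = 0.00354) and -0.463 for AT1G54050.1 (adjusted p = 0.00845). It gives -0.518 for HSP15.4 (adjusted p = 0.0208) and adjusted p from 0.257 to 0.726 for the other transcripts at that time. At 30 min it gives changes from -0.796 to -1.354 for the transcripts of the 10 genes, with adjusted p of at most 0.00252. At 45 min the changes run from -0.738 to -1.646, with adjusted p of at most 0.0035, HSP17.4 being at -0.832 (adjusted p = 0.00143). For HSP15.4 at 90 min the table gives -0.565 (adjusted p = 0.00528).

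**Figure D4:**
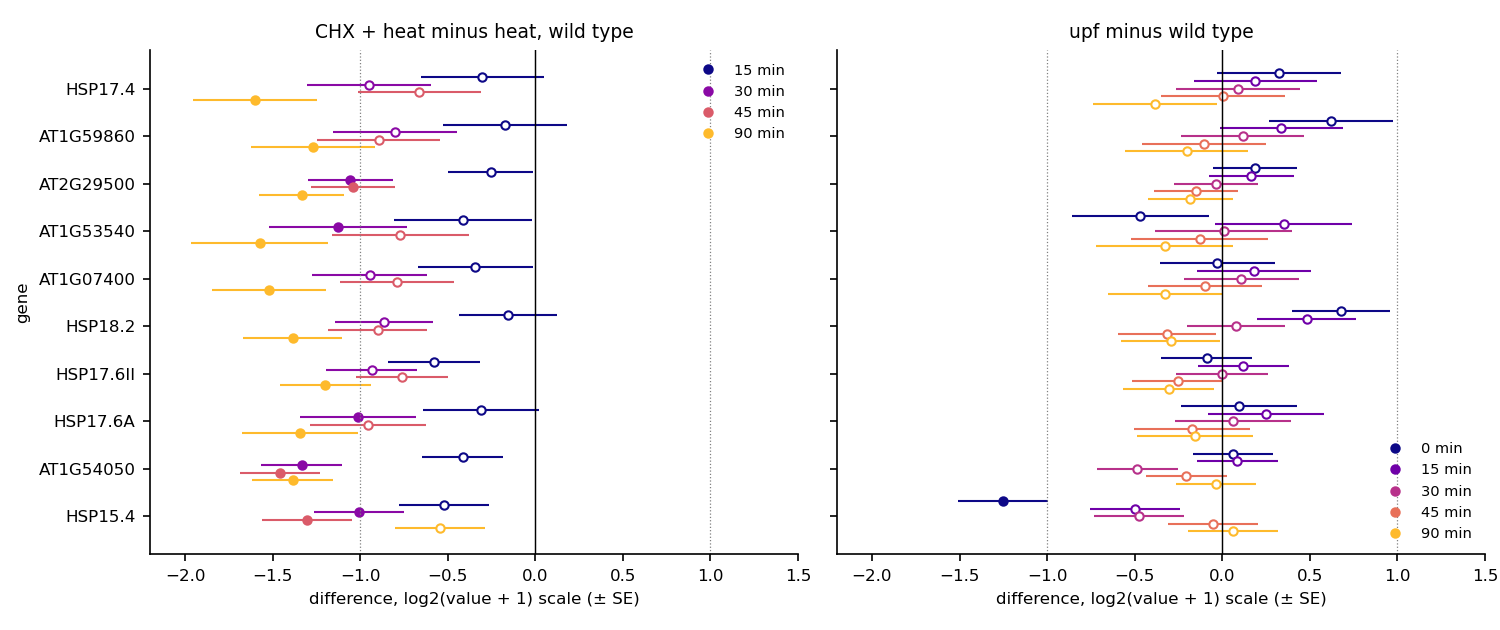
Differences of each of the 10 genes on the log2(value + 1) scale, CHX plus heat minus heat at left and upf minus wild type at right, with bars of ± SE and colours for the time in min. Circles are filled where limma called the difference and open where it did not, and dotted lines mark a 2-fold difference; at left all points lie below 0, and at right HSP15.4 at 0 min is the filled point (-1.25).

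The counts at 30 and 45 min move with single libraries. Without any 1 library 1 to 7 genes were lower at 30 min, 2 to 9 at 45 min and 9 at 90 min. The count at 45 min was 9 without replicate 2 of heated wild type and 8 without replicate 3 of the CHX group. At 30 min it was 1 without replicate 3 of heated wild type or replicate 1 of the CHX group. AT1G54050 was called at 30, 45 and 90 min, with -1.33, -1.46 and -1.38 (SE 0.23 each, adjusted p = 1.9e-05, 5.2e-06 and 9.1e-06), and with libraries scaled to equal totals, where the counts were 1, 1 and 3, it was the gene called at 30 and 45 min (-1.07 and -1.11) and missed the 2-fold limit at 90 min (-0.95).

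Library totals were lower with CHX as well, and limma called 0 of the 4 shoot markers lower at any time, with median log2 differences of -0.20, -0.52, -0.36 and -0.54. At 90 min the summed normalized counts were 19.2 to 22.1 M with CHX and 26.1 to 29.0 M without, and the summed shoot markers 469716.5 to 751364 and 664586 to 931004. The totals did not overlap and the shoot markers did. The summed root markers, nearly all of it PYK10, were higher with CHX at 30 min (26412 to 32945.5 against 10094.5 to 17291) and lower at 90 min (3430.5 to 4287.5 against 5679 to 6621). Single markers differed from the sum. At 30 min WOX5 alone had a lower mean with CHX (20.3 against 54.5), and at 90 min TIP2;3 alone a higher one (160.3 against 122.2). The part of these differences in the lower levels was not tested. The family took 0.389 ± 0.0299% of all counts with CHX at 15 min, 1.58 ± 0.214% at 30 min, 2.67 ± 0.674% at 45 min and 2.28 ± 0.546% at 90 min, on average less than without CHX at each time. The libraries overlapped at 15 and 45 min and did not at 30 and 90 min.

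The step between times was tested with CHX as well. From 15 to 30 min 9 genes rose (3.26% of all genes), HSP18.2 most (3.94, SE 0.28). From 30 to 45 min HSP18.2 alone was called (1.27, adjusted p = 0.00684; 0.337% of all genes), the gene that was also called without CHX. With the replicate number as a block, AT1G53540 joined it (1.15, adjusted p = 0.0354). The HSP18.2 call was lost without replicate 3 at 45 min or replicate 1 at 30 min (1.00 and 1.14, adjusted p = 0.129 and 0.06). From 45 to 90 min 0 genes were called by limma (0.0434% of all genes rose), and 0 had an unadjusted p under 0.05.

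AT1G54050 changed in the make-up of its transcripts too. Its transcripts carry the same coding sequence of 468 bases and differ in both untranslated regions. AT1G54050.1 spans 20179357 to 20180566 and AT1G54050.2 20179421 to 20180354 on the minus strand, so AT1G54050.1 also runs further at the 3′ end. In the 5′ untranslated region AT1G54050.1 starts further upstream and removes an intron of 83 bases (chromosome 1, 20180139 to 20180221) that AT1G54050.2 keeps. Both remove a coding intron of 97 bases (20179822 to 20179918). The exon and intron borders are shown because retention of the first of them is among the differences between the forms. Capitals mark the first and last letters of the intron, read 5′ to 3′ on the gene's strand from TAIR10.1:
untranslated-region intron start: cagGTaatg
untranslated-region intron end: tttgttttctggcAGtca
coding intron start: cagGTattg
coding intron end: ttggtgggaaattAGgtt

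AT1G54050.2 made up 0, 3.68 and 6.54% of the gene's normalized counts in the unheated wild-type libraries, 14.9, 11.6 and 18.0% after 15 min, 41.1, 37.0 and 32.4% after 30 min, 60.0, 60.0 and 55.2% after 45 min and 60.7, 50.5 and 47.9% after 90 min. Every heated library lay above every unheated one. Its mean level was 4.0 normalized counts before heat and 49753 after 45 min, and that of AT1G54050.1 was 113.7 and 35133. The usage of AT1G54050.2, its log2 change relative to the other transcript of the gene, was tested across 22958 transcripts with limma's diffSplice, a test added after these values had been seen. It was 2.43 (SE 0.57, adjusted p = 0.00527) at 15 min, 4.19 (adjusted p = 6.6e-08) at 30 min, 5.46 (adjusted p = 2.4e-11) at 45 min and 5.15 (adjusted p = 1.7e-10) at 90 min, when 1.56, 7.19, 8.61 and 8.27% of all transcripts tested had a higher usage. The call at 15 min was lost without replicate 1 of unheated wild type, the library with 0 (1.51, adjusted p = 0.136), and with a pseudocount of 10. In the authors' deposited table AT1G54050.2 changed by 13.61 and AT1G54050.1 by 8.27 between 0 and 45 min.

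**Figure D5:**
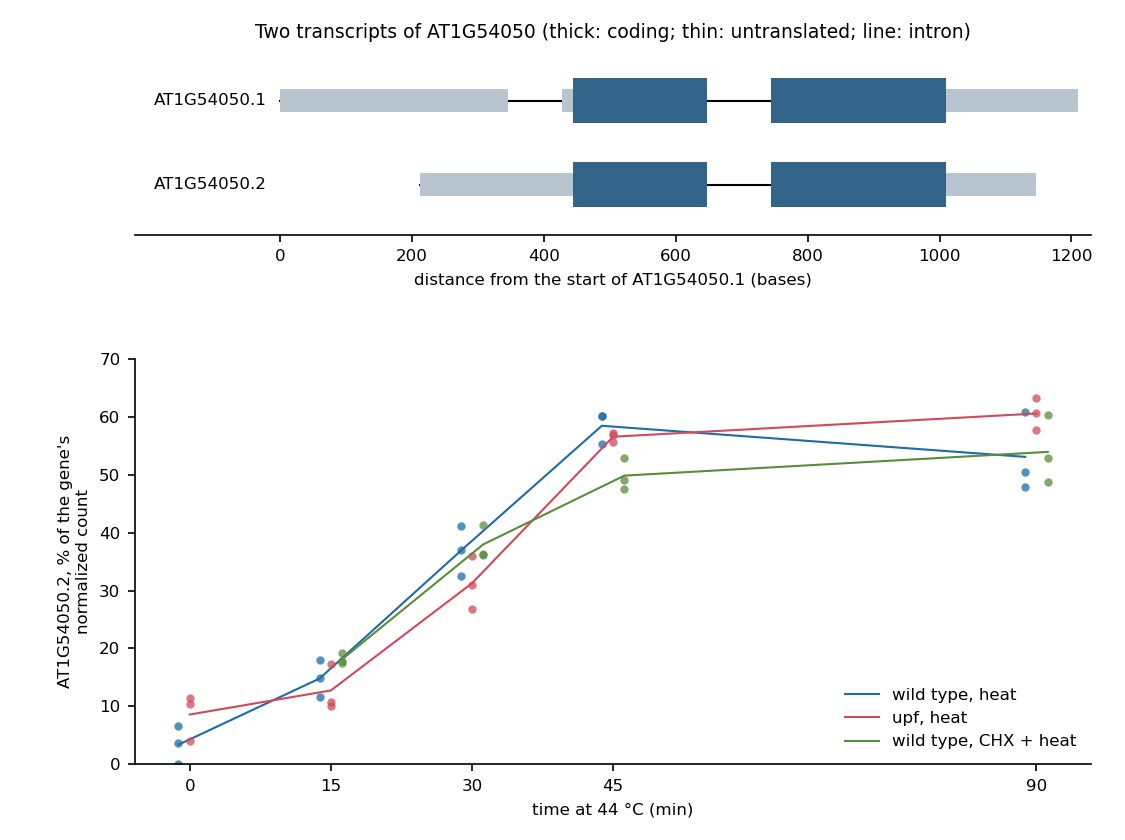
Upper panel, the exons (boxes, thick where coding) and introns (lines) of both AT1G54050 transcripts against the distance in bases from the start of AT1G54050.1. Lower panel, AT1G54050.2 as a percentage of the gene's normalized counts against time at 44 °C in min, with 1 point per library and lines through means of 3. The share climbs from 3.41% to 58.4% in wild type at 45 min and the 3 series run close together.

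In upf the share of AT1G54050.2 averaged 8.61% before heat and 12.8, 31.3, 56.5 and 60.5% at the 4 times. With CHX it averaged 18.15, 38.0, 49.8 and 53.9%. Usage rose in upf at 30, 45 and 90 min (2.22, 3.75 and 3.99; 4.8, 6.9 and 7.13% of transcripts) but was 0.55 at 15 min (adjusted p = 0.958; 1.46% of transcripts). It rose with CHX at all 4 times, by 2.80 to 5.20 (2.42, 4.8, 5.74 and 6.31% of transcripts). Usage was not called in any comparison of upf with wild type or of CHX with heat, and the difference at 0 min was 1.603 (adjusted p = 0.162), or 2.26 (adjusted p = 0.0347) without replicate 3 of unheated wild type. Of the 31-base words of AT1G54050.2 110 of 807 are absent from AT1G54050.1. Of those of AT1G54050.1 303 of 1000 are absent from AT1G54050.2. The split of reads between the forms rests on these stretches. AT1G54050.2 lies within the span of AT1G54050.1, so its own words cover the kept intron of 83 bases and its borders. RNA of AT1G54050.1 with that intron still unspliced cannot be told apart from AT1G54050.2 by these words.

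Other genes of the heat response were counted from lists of 9 other small heat shock proteins, 12 heat shock factors and coactivators, and 12 partner chaperones. In wild type at 90 min 8, 9 and 12 of them had risen, with median log2 changes of 9.33, 4.49 and 7.11, beside 12.2% of all genes and a median of -0.14. The 3 of each list with the highest mean level were HSP23.6 and HSP23.5 of mitochondria and HSP22.0 of the endoplasmic reticulum, HSFA2, MBF1C and HSFB1, and HSP101, HSP70-4 and HSP70B. HSP23.6 rose by 12.80, HSP22.0 by 12.69 and HSP23.5 by 7.68. HSFA2, a heat shock factor that amplifies the response, rose by 10.49, the coactivator MBF1C by 7.59 and HSFB1, a factor known as a repressor, by 6.26. The disaggregase HSP101 rose by 9.99, and the HSP70 chaperones HSP70-4 and HSP70B by 6.79 and 11.65.

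With CHX at 90 min 4 of the 9 other small heat shock proteins, 2 of the 12 factors and all 12 partner chaperones were lower than in heat alone, beside 2.77% of all genes. The median differences of the lists were -0.91, -0.25 and -1.36, and that of all genes 0.08. HSP101 differed by -1.60, HSP70B by -1.81 and HSP70-4 by -1.53, close to the range of the 9 cytosolic genes, and HSFA2 differed by -0.93 and was not called. In unheated upf 2 genes of each list were higher and none lower, beside 5.99 and 1.48% of all genes. The difference of the heat responses at 90 min was below 0 and called for 1, 3 and 4 genes of the lists (0.468% of all genes), HSP70B (-1.87), HSP101 (-1.50) and HSFA2 (-2.66) among them. Of the 10 cytosolic genes HSP15.4 alone was called there, with a positive sign (1.9% of all genes were called in that direction). HSFA2, HSP70B and HSP101 started higher in unheated upf, with means of 631.8, 436 and 1291 normalized counts against 111.8, 143.2 and 618.8 in wild type. At 90 min their means were 141214, 378030 and 459731 in upf and 159653, 454390 and 621146 in wild type. Limma called 0 genes of the lists higher or lower in upf than in wild type at 90 min.

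The non-member genes whose pattern over the 14 group means was most like the summed level of the 10 were AT5G54165 (Pearson r of log2 values 0.9991), HSP90.1 (0.9988), MBF1C (0.9985), AT5G51440, which is HSP23.5 (0.9984) and HSP23.6 (0.9982), among 6534 genes whose group means spanned at least 2.0 log2 units. Those most like AT1G54050 were AT2G20560 (0.9991), PDX1.2 (0.998) and AT5G35320 (0.9978). For HSP15.4 the nearest were bZIP44 (0.9484), AOC2 (0.9385) and HKL1 (0.9384), at lower values. These are descriptions over group means that share libraries and depth, and no p is given.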

How the data were processed

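RNA-seq of 42 libraries (14 groups of 3) was analysed from the authors' deposited table of normalized counts, treated as a score, per transcript and lane and rounded to whole numbers. Per the submitters' processing notes kallisto, sleuth and the build TAIR10 were used, with no versions or roles; the scaling of the values is not stated. A second deposited table holds the authors' own comparisons of transcripts, as a log2 change and an adjusted p-value each; it is quoted only where named. The 84 columns were assigned by label, the 2 lanes of a library averaged (lane correlation at least 0.905) and 48359 transcripts summed to 27655 genes. The spacing of low values differs between columns, so these are not raw counts and no count model was used.

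Differences were fitted with limma 3.58.1 in R 4.3.3 (trend, 14 group means, all 42 libraries) on log2(value + 1) for 20747 genes at 10 or more in at least 3 libraries, with Benjamini-Hochberg adjustment over these genes. Fold changes of low genes are understated on this scale. Intervals are 95% from limma's t distribution. Libraries come from pools of plants, and nothing else says how independent they are, so p-values measure the spread between these libraries. The fit was tested on simulated data. The 10 genes and the lists were chosen with earlier results of these data known. From the lists, the 3 genes with the highest mean over all libraries are named. Same-numbered libraries, numbered in the labels, deviated together (every correlation over 0.1) in 3 of 27 comparisons (CHX against heat at 30 min, and the CHX steps from 30 to 45 and 45 to 90 min); the blocked value stands beside the result it changes. Alternatives were other pseudocounts, no filter, other scalings, single lanes, compared groups only, a replicate block and each library left out. Gene models and sequences are from the RefSeq annotation of TAIR10.1. Python 3.11.15, pandas 2.3.3, numpy 2.4.6 and matplotlib 3.10.9 were used.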

Additional observations from a re-analysis of the deposited data

Results flagged for a closer look

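The heat response of HSP15.4 at 90 min differed between upf and wild type by 1.32 on the log2 scale (95% interval 0.58 to 2.06, limma adjusted p = 0.0316; 1.9% of all genes had a larger response in upf). HSP15.4 went from a mean of 107 to 418.7 normalized counts in upf and from 245.2 to 405.2 in wild type, so that the groups differed before heat and overlapped after it. The call was lost without any one of 8 of the 12 libraries (1.01 to 1.34, adjusted p from 0.0532 to 0.153).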

How the results depend on the processing

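Counts of the 10 genes past the threshold kept within 1.5 times the reported count in all heat against 0 min comparisons under every alternative run. With libraries scaled to equal totals, genes lower with CHX than in heat alone numbered 1 at 30 min, 1 at 45 min and 3 at 90 min (5, 3 and 9 as reported), while the median of all genes moved to between 0.11 and 0.50. The gene called in the difference of heat responses at 90 min was lost, leaving 0, under that scaling and in a fit on the compared groups only. That fit also gave 0 genes from 30 to 45 min both without and with CHX. With the replicate block the difference of heat responses at 45 min gave 1 gene (0 as reported) and the CHX step from 30 to 45 min 2 genes; no other count of the 10 moved by over 1.5 times under the block. Leaving out 1 library at a time gave 1 to 7 genes lower with CHX at 30 min, 2 to 9 at 45 min and 9 at 90 min. For upf against wild type at 0 min it gave 0 to 1 genes higher and 0 to 2 lower. The differences of heat responses at 45 and 90 min ranged from 0 to 1 gene higher, and the steps from 30 to 45 min from 0 to 2 without and with CHX. No direction of a called gene reversed under the alternatives run. Read numbers were estimated at 20.4 to 76.4 M per library, and unheated levels of 25 to 350 normalized counts leave the large fold changes resting on small base values. Without a stated scaling by the authors, changes near 2-fold depend on how libraries are set to each other. The causes of these shifts were not tested.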
